A study of Mus musculus with 28 samples.

Results

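The genes that build the hair shaft and the inner root sheath of mouse skin were measured on 7 days over 14 days of wound healing. The 33 genes, named members in the plots, were taken by name and fall into role classes: 9 type I and 7 type II hair shaft keratins, 4 type I and 4 type II inner root sheath keratins, the companion layer keratin Krt75 and 8 partner genes. Counts were analysed for 32 of the 33 genes, out of 29068 genes in the count table. The type II inner root sheath gene Krt74, which the mouse annotation lists as a transcribed pseudogene, was not analysed here. All 32 genes passed the filter on low counts, which 18107 genes passed in all, and they could pass it through the late days alone, when they were abundant.

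MLKL+/+ mice on the C57BL/6J background, 8 weeks old and of both sexes, received an excisional wound 6 mm wide that reached the fascia of the shaved back. The groups were Day 0, the start that the labels name as control, and Day 3, Day 5, Day 7, Day 10, Day 12 and Day 14, each with 4 RNA-seq libraries of skin labelled as natural wound healing. The study's methods list a collection on day 1, the day of injury, and no Day 0, and the sources used here do not say whether the Day 0 samples were unwounded skin or fresh wounds, so each comparison with Day 0 is a comparison with that labelled start. No group carried a transgene, a deletion or a drug treatment. Samples were described as the entire wound site with its scab and epithelial margins, so a library can hold follicles of the margin as well as of the healing area, and these cannot be told apart. The study's methods say that mice were killed on the day of collection, so Days 3 to 14 are different mice and no wound was followed over time. Differences between days cannot be told apart from differences between those mice. The labels do not say whether the 4 libraries of a day came from separate mice, so the p-values measure the spread between these libraries, which may be technical. The libraries held 36706513 to 40655764 counts each. The epidermal keratins Krt5 and Krt14, which mark basal keratinocytes, were abundant on every day, with daily means of 444 to 1133 FPKM for Krt5 and 682 to 1106 FPKM for Krt14. FPKM, the authors' fragment count scaled to the length of the gene and the total of the library, is the unit of every level given here.

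The hair follicle grows in cycles, and only in its growth phase, anagen, do cells of the bulb differentiate into shaft and inner root sheath. Hair keratins are built as pairs of an acidic type I and a basic type II chain, which form the filaments of the shaft cortex and cuticle, while a separate set of keratins fills the inner root sheath that moulds the growing shaft. Krt35 and Krt85 are known as the shaft keratins that appear earliest, low in the bulb, and Krt31, Krt34, Krt81, Krt83 and Krt86 as keratins of the cortex above it. In mice about 8 weeks old the follicles of the back are usually in the resting phase, telogen.

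The 4 Day 0 libraries differed among themselves more than those of any other day. Replicate 1 of Day 0 was the highest of the 4 in all 32 genes, and replicate 4 was the lowest in 24 of them. The highest Day 0 FPKM was 7.64 times the lowest in the median gene, with a range from 1.58 times for Krt75 to 71.4 times for Tchhl1. The coefficient of variation of the median gene was 91.7% (Day 0), against 47.3% and 43.0% on Days 3 and 5, when counts were low, and 11.7% to 17.3% on Days 7, 10, 12 and 14. Over all genes tested, the biological coefficient of variation estimated by edgeR was 26.5% (Day 0) and 5.77% to 10.8% on the other days. The share of a library's counts that fell on the 32 genes was 0.348% in replicate 1 and 0.0492% in replicate 4. Over all genes, Day 0 replicates 2 and 3 were the closest pair (median chi-square per gene 1.64), then 1 and 4 (4.03), while pairs across these were at 8.10 to 10.1. Markers of other tissues split with them: in replicates 1 to 4 the fibroblast gene Col1a1 was at 1240.1, 2742, 2686 and 677 FPKM and the muscle gene Myh1 at 373, 110.2, 108 and 367. The part of this split in the comparisons with Day 0 was not tested. Counts and medians over the 32 genes, and the fold changes against Day 0 given with an SE that moved by over 1.5 times, are therefore also given without replicate 1, which leaves 3 Day 0 libraries.

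**Figure D1:**
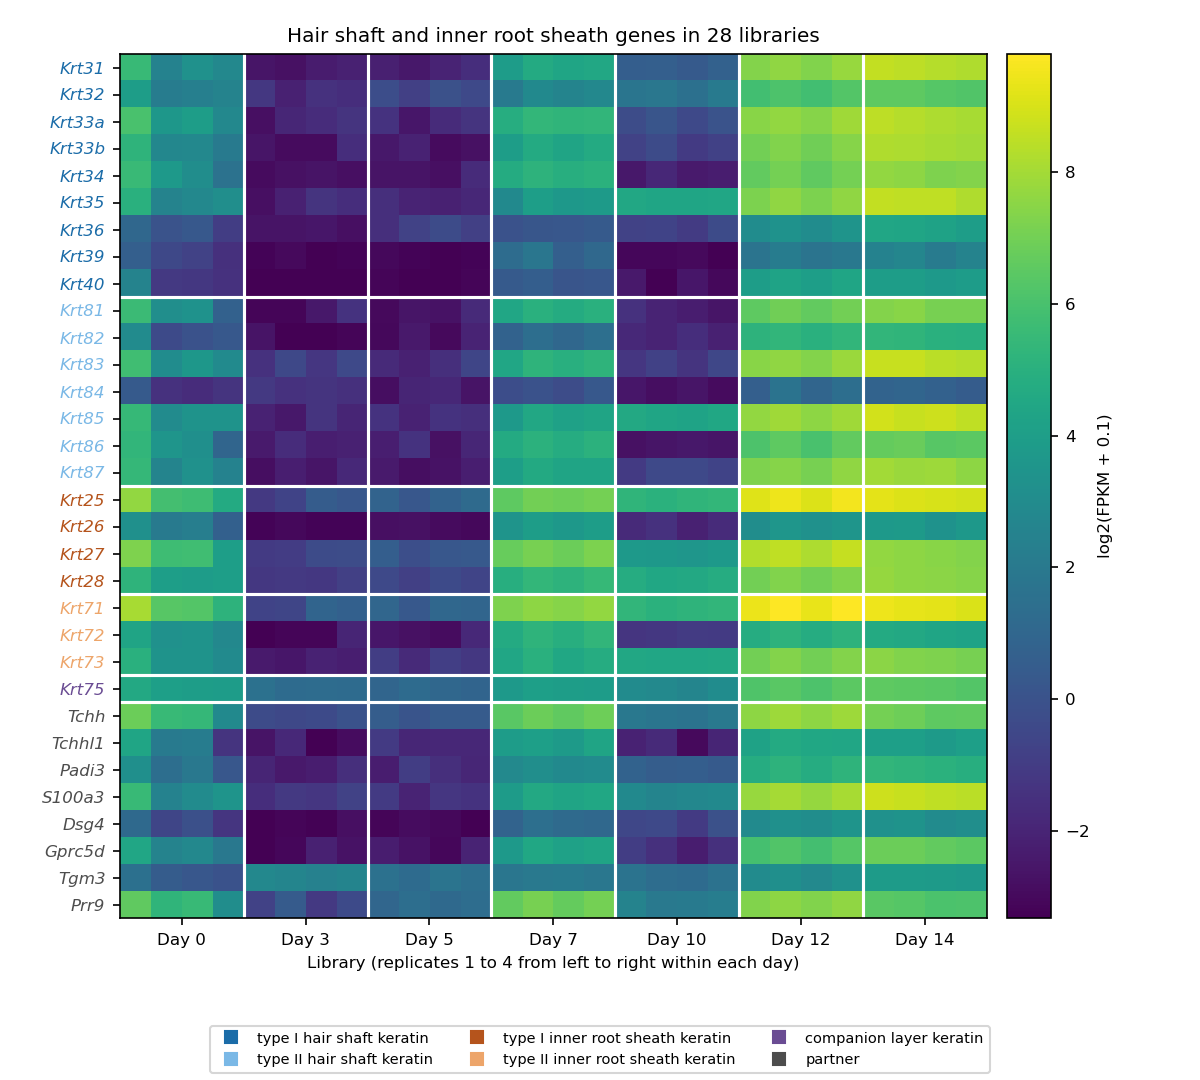
Heat map of log2(FPKM + 0.1) for the 32 genes (rows, coloured by class) in the 28 libraries (columns, replicates 1 to 4 within each day). The columns are dark on Days 3 and 5, bright on Days 12 and 14, and on Day 10 some rows are as bright as on Day 7 and others as dark as on Day 3, and the first Day 0 column is the brightest of its day in all 32 rows.

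The pooled share of all counts that fell on the 32 genes was lowest on Days 3 and 5, higher on Day 7, lower again on Day 10 and highest on Days 12 and 14. Single genes departed from this course: Tgm3 was called higher on Day 3, Krt84 was not called on Day 3, Krt35 and Krt85 had higher means on Day 10 than on Day 7, and 6 genes were not called above the start on Day 14. The share lay between 0.0492% and 0.348% (Day 0), 0.00483% and 0.00555% (Day 3), and 0.00403% and 0.00493% (Day 5). It reached 0.205% to 0.282% (Day 7), went down to 0.0436% to 0.050% (Day 10), and stood at 0.878% to 1.16% (Day 12) and 1.01% to 1.29% (Day 14). The 4 libraries of Day 10 all lay below the 4 of Day 7, and the libraries of Days 12 and 14 all lay above every library of the earlier days. In these bulk samples, fewer cells of a type and less RNA per cell cannot be told apart.

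A gene was called lower or higher where its log2 fold change exceeded 1.5 in size with a BH-adjusted p under 0.05 in edgeR's quasi-likelihood test, adjusted over the 18107 genes. On Day 3, 30 of the 32 genes were called lower than on Day 0 and 1 higher, against 12.3% of all genes tested called lower and 6.44% higher. On Day 5, 30 were lower (8.22% of all genes), with 0 called higher (5.52%). On Day 7, 0 were lower (4.64%) and Krt39 alone was higher (4.52%). On Day 10, 21 were lower (5.02%) and 0 higher (4.22%). On Day 12, 29 were higher (3.69%) and 0 lower (3.38%), and on Day 14, 26 were higher (5.10%) and 0 lower (8.71%). The median log2 fold change over the 32 genes was -6.67, -5.96, 0.71, -3.53, 2.73 and 3.08 on Days 3, 5, 7, 10, 12 and 14, while the median over all genes tested ran from -0.06 to 0.0024. Those 6 comparisons share the Day 0 libraries.

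Without Day 0 replicate 1, every log2 fold change of the 32 genes against Day 0 went up, by 0.18 to 2.48. Replicate 1 was the highest of Day 0 in all 32 genes, so this direction was fixed beforehand and only the sizes are a result. The calls on Day 7 changed most. The number of genes called higher on Day 7 than on Day 0 went from 1 to 21 (5.55% of the 18410 genes tested in that fit), and the median log2 fold change from 0.71 to 1.69. On Day 10, 19 genes were then called lower (5.12%) and 1 higher (4.85%), with 19 calls shared and a median of -2.40. Without that library, Day 3 had 30 genes lower (11.9%) and 1 higher (7.34%) and Day 5 had 29 lower (8.22%), all of them shared with the calls above. Days 12 and 14 then had 31 (4.55%) and 30 (6.34%) higher, which included all 29 and all 26. The medians without it were -5.48 (Day 3), -5.07 (Day 5), 3.57 (Day 12) and 3.99 (Day 14). The Day 7 count also moved without other libraries, to 3 without Day 7 replicate 1, to 2 without Day 7 replicate 3, and to 0 without Day 0 replicate 4 or Day 7 replicate 2.

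Fold changes between neighbouring days do not compare with the Day 0 libraries. Those libraries still enter the spread estimated in the 1 fit of 28 libraries, and so the SEs, p-values and calls. In fits of only the 8 libraries compared, the number called differed from that given here only from Day 3 to Day 5, at 4 in place of 3. From Day 3 to Day 5, 3 genes were called higher (1.79% of all genes tested) and 0 lower (0.607%), with a median log2 fold change of 0.64. From Day 5 to Day 7, 30 of the 32 were called higher (2.23%) and 0 lower (1.08%), with a median of 6.51. From Day 7 to Day 10, 24 were called lower (2.98%) and 0 higher (1.24%), with a median of -4.02. All 32 were higher on Day 12 than on Day 10 (3.32%) and 0 were lower (2.36%), with a median of 5.47. Between Day 12 and Day 14, 0 were called in either direction (0.712% higher, 2.59% lower). Every count of 0 given for Days 3 to 14 was also 0 in DESeq2. At an unadjusted p under 0.05 with no limit on the fold, 15 genes in place of 1 were higher on Day 7 than on Day 0 (28.2% of all genes tested). By the same rule the 0 counts became 1 higher on Day 5 (30.7%) and 1 higher on Day 10 (26.1%) against Day 0, 3 lower on Day 5 against Day 3 (16.9%), 1 higher on Day 10 against Day 7 (19.3%), and 10 higher (23.0%) and 4 lower (28.6%) on Day 14 against Day 12. The other counts of 0 stayed at 0. With the adjusted p alone and no limit on the fold, 12 genes were higher on Day 7 than on Day 0 (25.6% of all genes tested), 1 on Day 5 (29.0%) and 1 on Day 10 (23.5%). By that rule 2 were lower on Day 5 than on Day 3 (11.4%), and between Days 12 and 14 the counts were 7 higher (19.9%) and 3 lower (25.3%) at the later time. In the test over all 7 days, 32 of the 32 genes passed, against 89.5% of all genes tested.

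**Figure D2:**
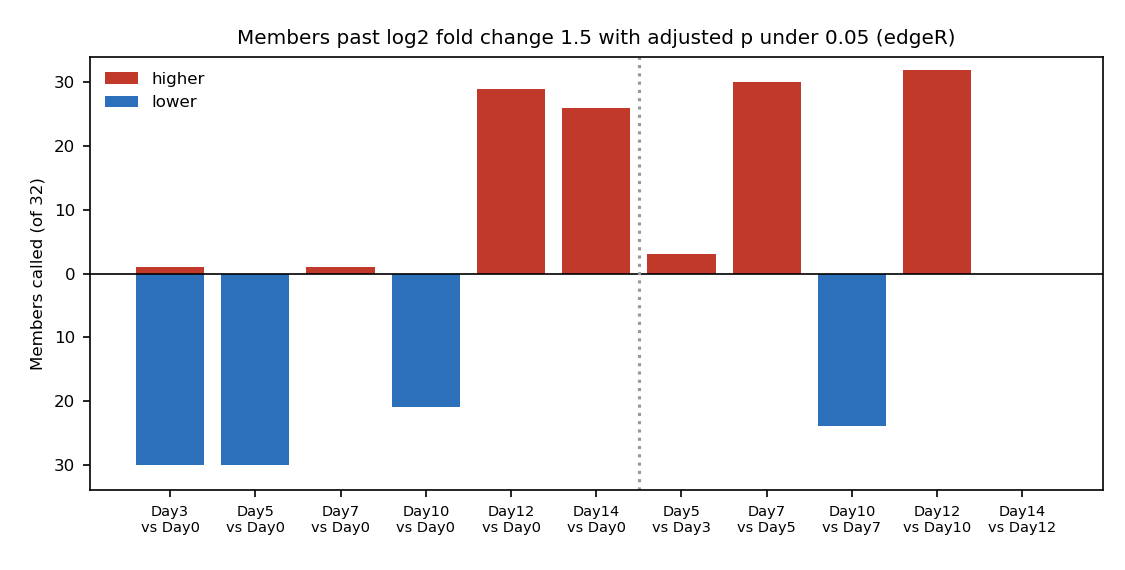
Number of the 32 genes called higher (red, upward) and lower (blue, downward) at a log2 fold change over 1.5 and an adjusted p under 0.05 in edgeR, for 6 comparisons with Day 0 and, right of the dotted line, 5 comparisons of neighbouring days. The bars change side between Day 7 and Day 10 (24 lower) and between Day 10 and Day 12 (32 higher).

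Among the type I hair shaft keratins, all 9 were called lower on Day 3 and all 9 higher on Days 12 and 14 than on Day 0. Krt35, the early type I keratin of the shaft, was measured at 32.1, 5.74, 6.92 and 8.81 FPKM in the 4 Day 0 libraries, at 0.0447, 0.134, 0.297 and 0.223 (Day 3) and at 0.245, 0.146, 0.132 and 0.177 (Day 5). It stood at 7.5, 16.5, 12.4 and 14.3 FPKM (Day 7) and at 23.0, 21.1, 20.6 and 21.7 (Day 10). The late values were 149.6, 194, 149.8 and 195 FPKM (Day 12) and 392.2, 375, 367 and 303 (Day 14). Every Day 10 value of Krt35 lay above every Day 7 value, and both late days lay above all other days. Its log2 fold change against Day 0 was -6.19 (SE 0.54, edgeR BH-adjusted p = 7.77e-11, and -5.23 without Day 0 replicate 1) on Day 3 and 4.62 (SE 0.37, edgeR BH-adjusted p = 1.59e-11, and 5.61 without Day 0 replicate 1) on Day 14. On Day 10 against Day 7 it was 0.72 (SE 0.33, edgeR BH-adjusted p = 0.096), which did not pass the threshold. On Day 10 against Day 0 it was 0.63 and not called. Without Day 0 replicate 1 it was 1.55 there, and Krt35 was the 1 gene called higher.

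Krt33a, a type I keratin of the cortex, followed another course on Day 10. Its FPKM was 65.8, 12.3, 15.8 and 6.93 (Day 0), 0.0459, 0.168, 0.213 and 0.290 (Day 3) and 0.280, 0.0747, 0.210 and 0.288 (Day 5). It rose to 29.2, 41.5, 38.0 and 39.1 FPKM (Day 7) and stood at 0.739, 1.01, 0.633 and 0.935 (Day 10). On Day 12 it was 179.7, 203, 168 and 241 FPKM and on Day 14 353, 327, 286 and 269. The 4 Day 10 libraries were all below the 4 Day 7 libraries. Krt33a had a log2 fold change from Day 7 to Day 10 of -5.53 (SE 0.50, edgeR BH-adjusted p = 1.96e-09), and that from Day 10 to Day 12 was 7.81 (SE 0.53, edgeR BH-adjusted p = 2.82e-12). Against Day 0 it was -7.07 (SE 0.62, edgeR BH-adjusted p = 6.99e-11, and -5.90 without Day 0 replicate 1) on Day 3.

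Of the other 7 type I shaft keratins, 5 were called on Day 10 against Day 7. Krt31, Krt33b, Krt34, Krt39 and Krt40 were called lower than on Day 7, with log2 fold changes of -3.95, -5.44, -8.12, -7.35 and -4.72. Day 10 counts were few for Krt34 (5, 11, 6 and 7), Krt39 (2, 2, 3 and 0) and Krt40 (7, 0, 6 and 2), so the sizes of their fold changes are rough. Krt32, a keratin of the shaft cuticle, and Krt36 were not called, though every Day 10 library lay below every Day 7 library, at 4.06 to 7.45 FPKM (Day 7) and 2.76 to 4.04 (Day 10) for Krt32, and at 0.876 to 1.21 and 0.385 to 0.713 for Krt36. Their Day 7 means were 1.77 and 1.99 times the Day 10 means. Krt39 was the only gene of the 32 called higher on Day 7 than on Day 0, at 2.37, 3.50, 1.48 and 2.09 FPKM (Day 7) against 1.49, 0.611, 0.502 and 0.247 (Day 0). Its log2 fold change there was 1.72 (SE 0.32, edgeR BH-adjusted p = 5.61e-05, and 2.37 without Day 0 replicate 1), and it lost the call without Day 0 replicate 4 (1.44) or without Day 7 replicate 2 (1.46). Krt36 and Krt32 were also among the 3 genes called higher from Day 3 to Day 5, with log2 fold changes of 2.95 (SE 0.49, edgeR BH-adjusted p = 3.61e-05) and 1.503 (SE 0.54, edgeR BH-adjusted p = 0.0422). The third was the partner gene Prr9, at 1.68 (SE 0.59, edgeR BH-adjusted p = 0.0365). With each of the 8 libraries left out in turn, Krt32 lost that call 7 times (log2 fold changes 1.27 to 1.65) and Prr9 6 times (1.42 to 2.11). Krt32 also fell short of the limit in DESeq2, at 1.499, and with DESeq2's size factors, at 1.492.

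Krt40, a keratin of the shaft cuticle, had 0 counts in all 4 Day 3 libraries. With a floor of 3 counts per library, it was at least 47.1-fold lower on Day 3 than on Day 0, or at least 8.89-fold lower without Day 0 replicate 1. Its FPKM was 5.83, 0.359, 0.334 and 0.268 (Day 0) and 15.9, 19.5, 16.3 and 21.0 (Day 12). With Krt40 at that bound, the median log2 fold change of the 32 genes on Day 3 was -6.64.

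Of the 7 type II hair shaft keratins, 6 were called lower on Day 3, 7 on Day 5 and 6 on Day 10, and all 7 were called higher on Days 12 and 14. Krt85, the early type II partner of Krt35, was measured at 43.5, 7.87, 10.5 and 10.5 FPKM (Day 0), 0.139, 0.0792, 0.286 and 0.158 (Day 3) and 0.277, 0.136, 0.282 and 0.236 (Day 5). Its FPKM was 13.0, 23.5, 18.1 and 20.5 (Day 7) and 23.8, 20.9, 19.7 and 22.7 (Day 10). The values were 202, 242, 189 and 246 (Day 12) and 480.1, 421, 443 and 367 (Day 14). Day 7 and Day 10 overlapped for Krt85, and the libraries of Days 12 and 14 lay above all others. The log2 fold change against Day 0 was -6.71 (SE 0.50, edgeR BH-adjusted p = 3.15e-12, and -5.74 without Day 0 replicate 1) on Day 3, 0.21 (SE 0.32, edgeR BH-adjusted p = 0.621, and 1.13 without Day 0 replicate 1) on Day 10 and 4.43 (SE 0.36, edgeR BH-adjusted p = 2.71e-11, and 5.43 without Day 0 replicate 1) on Day 14. From Day 7 to Day 10 it was 0.16 (SE 0.32, edgeR BH-adjusted p = 0.749), within the spread of the libraries.

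Krt83, a type II keratin of the cortex, stood at 55.4, 8.11, 12.3 and 7.61 FPKM (Day 0), 0.263, 0.613, 0.320 and 0.656 (Day 3) and 0.197, 0.129, 0.244 and 0.564 (Day 5). It was 21.5, 36.4, 30.6 and 37.1 (Day 7) and 0.324, 0.476, 0.288 and 0.605 (Day 10). On Day 12 it reached 174, 198, 166 and 229 and on Day 14 419, 420.0, 352 and 321. The Day 10 libraries overlapped those of Days 3 and 5, and lay below every Day 7 library. Krt83 had a log2 fold change from Day 7 to Day 10 of -6.26 (SE 0.56, edgeR BH-adjusted p = 1.56e-09). From Day 10 to Day 12 it was 8.73 (SE 0.58, edgeR BH-adjusted p = 2.24e-12).

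The remaining type II shaft keratins Krt81, Krt82, Krt84, Krt86 and Krt87 were all called lower on Day 10 than on Day 7, by log2 fold changes between -8.88 for Krt86 and -3.73 for Krt82. Krt86 had only 4, 5, 6 and 5 counts on Day 10, so the size of its fold change is rough. Krt84, better known from tongue and nail than from hair, was the only shaft keratin not called on Day 3. Krt84 had the lowest mean FPKM of the class over the 28 libraries, though not the lowest level on Day 3. It was measured at 0.360, 0.269, 0.298 and 0.249 FPKM (Day 3) against 1.20, 0.259, 0.218 and 0.297 (Day 0). By Day 5 it was down to 0.0386, 0.156, 0.176 and 0.0594 FPKM, with a log2 fold change of -2.15 (SE 0.47, edgeR BH-adjusted p = 0.000269) against Day 0, a call that was lost without Day 0 replicate 1 (-1.20).

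**Figure D3:**
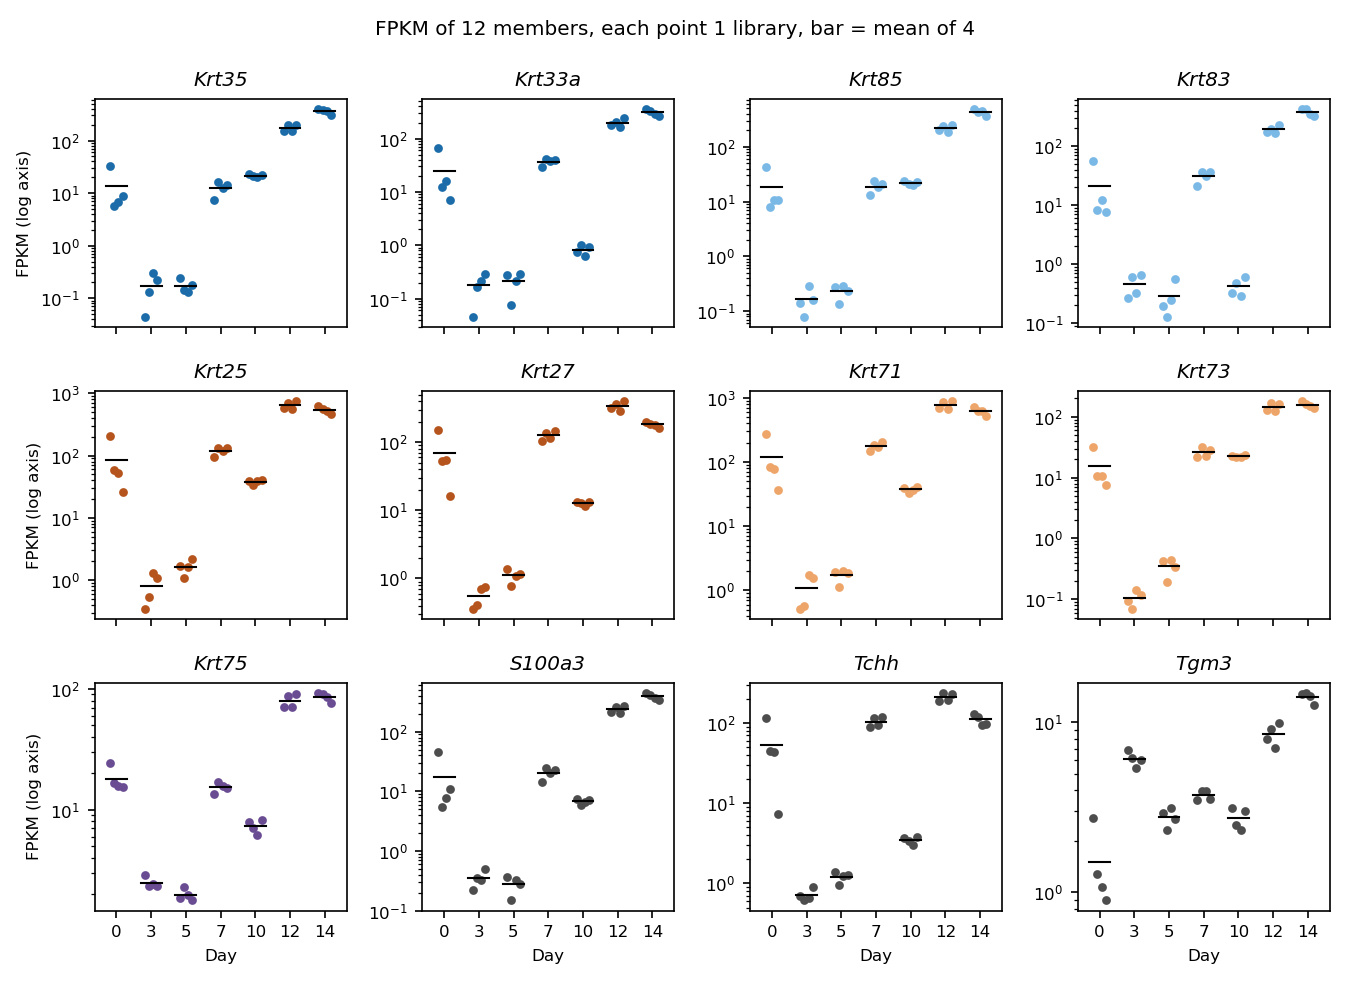
FPKM (log axis) by day for 12 genes, 1 point per library and a bar at the mean of the 4 libraries, with a separate scale for each gene. The Day 7 mean is 44.5 times the Day 10 mean for Krt33a and 74.2 times for Krt83, but 0.587 times for Krt35, 0.862 times for Krt85 and 1.16 times for Krt73, and Tgm3 is higher on Day 3 than on Day 0.

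Of the inner root sheath keratins, all 4 of the type I and all 3 of the type II genes analysed were called lower on Days 3 and 5 and called in no direction on Day 7 against Day 0. On Day 10, 4 of these 7 were called lower, beside 12 of the 16 shaft keratins, and on Days 12 and 14, 5 and 4 of the 7 were called higher, beside all 16 shaft keratins on both days. Without Day 0 replicate 1, the sheath counts on those 3 days were 3, 6 and 6. The Day 7 result turned for 3 of the 7 without Day 0 replicate 1, when Krt26 (1.99), Krt27 (1.61) and Krt72 (1.87) were called higher. Krt25, a type I keratin of all layers of the sheath, was measured at 205, 58.0, 52.3 and 26.1 FPKM (Day 0), 0.349, 0.529, 1.30 and 1.08 (Day 3) and 1.69, 1.06, 1.65 and 2.19 (Day 5). It reached 94.0, 130.5, 119.6 and 131 (Day 7), 38.8, 33.4, 38.6 and 41.0 (Day 10), 575, 709, 551 and 745 (Day 12) and 617, 553, 516 and 469.9 (Day 14). The Day 12 and Day 14 libraries overlapped each other and lay above all others. Its log2 fold change was -6.66 (SE 0.49, edgeR BH-adjusted p = 1.97e-12, and -5.69 without Day 0 replicate 1) on Day 3 against Day 0, -1.70 (SE 0.36, edgeR BH-adjusted p = 0.000582) on Day 10 against Day 7 and 4.00 (SE 0.39, edgeR BH-adjusted p = 3.99e-09) on Day 12 against Day 10.

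Krt27, also a type I keratin of the sheath, had its highest values on Day 12 and not on Day 14. Its FPKM was 151, 53.1, 54.7 and 16.2 (Day 0), 0.361, 0.410, 0.703 and 0.737 (Day 3) and 1.39, 0.786, 1.09 and 1.17 (Day 5). It was 105, 137, 117 and 146 (Day 7) and 13.2, 12.7, 11.7 and 13.0 (Day 10). On Day 12 it was 313, 369, 291 and 398 and on Day 14 201, 188, 178 and 164. All 4 Day 14 values lay below all 4 Day 12 values, though the log2 fold change of -0.89 (SE 0.32, edgeR BH-adjusted p = 0.0245) was under the limit of 1.5. From Day 7 to Day 10 it was -3.37 (SE 0.35, edgeR BH-adjusted p = 2.62e-08).

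Over the 28 libraries, the mean FPKM of Krt71 was the highest of the 32 genes, though not on Days 3 and 5. This type II keratin pairs with the type I sheath keratins. It was measured at 273, 84.5, 78.0 and 36.1 FPKM (Day 0), 0.520, 0.578, 1.75 and 1.53 (Day 3) and 1.94, 1.13, 1.98 and 1.87 (Day 5). It stood at 151, 188, 169.8 and 207 (Day 7) and 39.8, 33.1, 37.3 and 40.2 (Day 10). On Day 12 it was 690.4, 859.7, 666 and 889 and on Day 14 714, 632, 616 and 532. Day 10 lay between Days 5 and 7 with no overlap with either, and it overlapped Day 0 only through replicate 4 of the start. Krt71 had a log2 fold change of -6.69 (SE 0.47, edgeR BH-adjusted p = 8.47e-13, and -5.80 without Day 0 replicate 1) on Day 3 against Day 0 and -2.30 (SE 0.36, edgeR BH-adjusted p = 1.56e-05) on Day 10 against Day 7. On Day 10 against Day 0 it was -1.71 (SE 0.36, edgeR BH-adjusted p = 0.000233), and that call was lost without Day 0 replicate 1 (-0.86).

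Krt73, a type II keratin of the sheath cuticle, was measured at 32.3, 10.7, 10.5 and 7.70 FPKM (Day 0), 0.0940, 0.0704, 0.140 and 0.117 (Day 3) and 0.431, 0.195, 0.449 and 0.337 (Day 5). It was 21.5, 32, 22.8 and 28 (Day 7) and 22.8, 21.9, 21.8 and 23.3 (Day 10). The values were 129.8, 166, 127 and 164 (Day 12) and 180.0, 161, 152 and 139 (Day 14). Its Day 7 and Day 10 libraries overlapped, and the log2 fold change between them was -0.27 (SE 0.25, edgeR BH-adjusted p = 0.459). On Day 12 against Day 10 it was 2.62 (SE 0.27, edgeR BH-adjusted p = 6.88e-09).

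Of the other sheath keratins, Krt28 was not called on Day 10 against Day 7, at 27.3, 22.2, 24 and 28.2 FPKM against 29.7, 40.8, 35.6 and 44.0. Krt26 and Krt72, keratins of the sheath cuticle, were called lower, by -6.14 and -6.60 on the log2 scale. The companion layer, a sheet of flat cells between the inner and outer root sheaths, carries Krt75. Krt75 was measured at 24.3, 16.8, 15.8 and 15.3 FPKM (Day 0), 2.91, 2.33, 2.41 and 2.34 (Day 3) and 1.86, 2.30, 1.96 and 1.77 (Day 5). It stood at 13.4, 17.0, 15.8 and 15.1 (Day 7), 7.96, 7.06, 6.13 and 8.21 (Day 10), 71.5, 87.6, 70.3 and 90.8 (Day 12) and 92.3, 90.5, 86.3 and 77.1 (Day 14). It had the narrowest Day 0 range of the 32 genes. The log2 fold change was -2.80 (SE 0.13, edgeR BH-adjusted p = 2.59e-16) on Day 3 and 2.13 (SE 0.12, edgeR BH-adjusted p = 3.75e-14) on Day 14 against Day 0. Of the 30 genes called lower on Day 3, Krt75 had the smallest log2 fold change.

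The 8 partner genes work around the filaments. S100a3, a calcium-binding protein of the hair cuticle, was measured at 45.0, 5.53, 7.84 and 11.1 FPKM (Day 0), 0.224, 0.352, 0.327 and 0.504 (Day 3) and 0.371, 0.149, 0.322 and 0.286 (Day 5). It was 14.5, 24.3, 20.1 and 22.7 (Day 7), 7.39, 5.99, 6.58 and 7.26 (Day 10), 217, 265, 208 and 273 (Day 12) and 444, 412, 375 and 346 (Day 14). The 4 Day 10 libraries lay between the Day 5 and the Day 7 libraries. The log2 fold change was -5.57 (SE 0.50, edgeR BH-adjusted p = 1.42e-10, and -4.42 without Day 0 replicate 1) on Day 3, 4.37 (SE 0.41, edgeR BH-adjusted p = 4.45e-10, and 5.55 without Day 0 replicate 1) on Day 14 against Day 0, and -1.63 (SE 0.38, edgeR BH-adjusted p = 0.00132) on Day 10 against Day 7.

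Tchh, which encodes trichohyalin, the granule protein of the inner root sheath and the medulla, was measured at 117, 45.4, 43.2 and 7.40 FPKM (Day 0), 0.698, 0.614, 0.660 and 0.901 (Day 3) and 1.37, 0.951, 1.25 and 1.28 (Day 5). It reached 88.1, 114, 95 and 119 (Day 7) and was 3.68, 3.35, 3.06 and 3.83 (Day 10). On Day 12 it was 189, 236, 192 and 231 and on Day 14 131, 119, 94.5 and 98.1. Day 12 was its highest day, with no overlap with Day 14, and Day 14 overlapped Day 7. Tchh had a log2 fold change of -4.95 (SE 0.44, edgeR BH-adjusted p = 1.3e-09) on Day 10 against Day 7 and 5.84 (SE 0.45, edgeR BH-adjusted p = 4.54e-11) on Day 12 against Day 10. Its log2 fold change against Day 0 was 1.84 (SE 0.38, edgeR BH-adjusted p = 0.000218, and 2.60 without Day 0 replicate 1) on Day 12, which was not called without Day 0 replicate 4 (1.496).

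Tgm3, the transglutaminase that crosslinks trichohyalin and also acts in the epidermal barrier, went the other way on Day 3. It was measured at 2.73, 1.29, 1.08 and 0.897 FPKM (Day 0), 6.88, 6.14, 5.41 and 6.04 (Day 3) and 2.91, 2.33, 3.15 and 2.70 (Day 5). The values were 3.51, 3.92, 3.96 and 3.55 (Day 7) and 3.14, 2.51, 2.33 and 2.99 (Day 10). On Day 12 it was 7.96, 9.07, 7.03 and 9.89 and on Day 14 14.7, 14.8, 14.3 and 12.6. All 4 Day 3 libraries lay above the 4 Day 0 libraries. Tgm3 had a log2 fold change of 2.08 (SE 0.20, edgeR BH-adjusted p = 6.55e-10) on Day 3 and 3.10 (SE 0.21, edgeR BH-adjusted p = 5.2e-13) on Day 14 against Day 0.

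Of the other partners, Padi3, which converts arginines of trichohyalin to citrulline, the trichohyalin-like gene Tchhl1, the desmosomal cadherin Dsg4, the orphan receptor Gprc5d and the proline-rich gene Prr9 were all called lower on Days 3 and 5. All 5 were also called lower on Day 10 than on Day 7, by log2 fold changes from -7.03 for Tchhl1 to -1.87 for Dsg4. Tchhl1 had only 11, 16, 2 and 13 counts on Day 10, so the size of its fold change is rough. Against Day 0, Dsg4 was not called on Day 10, at 0.371 to 0.844 FPKM against 0.305 to 2.14 on the start day. Prr9, like Tchh and Krt27, was lower on Day 14 than on Day 12 in all 4 libraries, at 67.5 to 87.5 against 156 to 197 FPKM. Prr9 and Tchhl1, together with Krt26, Krt27, Krt72 and Tchh, were the 6 genes not called higher on Day 14 against Day 0, and 30 of the 32 genes were called higher there without Day 0 replicate 1.

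On Day 10 the 32 genes stood far apart from each other. As a share of the Day 14 mean FPKM, the Day 10 mean ranged from 0.0645% for Krt34, 0.0671% for Krt86, 0.0969% for Krt81 and 0.112% for Krt83 to 13.4% for Krt28, 14.2% for Krt73 and 19.4% for Tgm3. Krt35 and Krt85 stood at 6.01% and 5.09% (Day 10), against 3.53% and 4.39% (Day 7). They were the only genes of the 32 whose Day 10 mean was above the Day 7 mean. By contrast, Prr9, Krt72, Krt26 and Tchhl1 were above their Day 14 mean on Day 7, at 155%, 147%, 108% and 102% of it, and at 5.93%, 1.56%, 1.58% and 0.799% (Day 10).

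**Figure D4:**
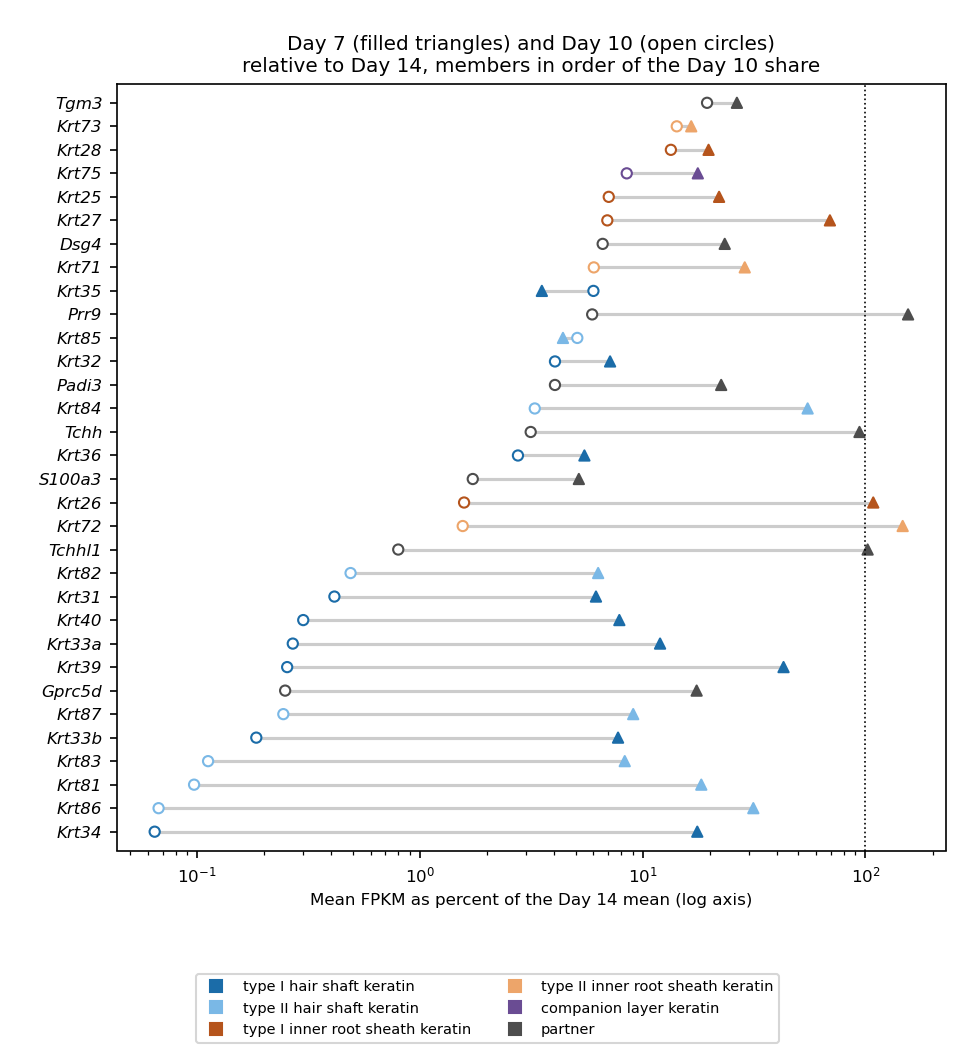
Mean FPKM on Day 7 (filled triangles) and Day 10 (open circles) as a percent of the Day 14 mean, on a log axis, for the 32 genes in order of the Day 10 value and coloured by class. The Day 10 values run from 0.0645% for Krt34 to 19.4% for Tgm3, and only for Krt35 and Krt85 does the circle lie right of the triangle.

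Ratios within a library, which do not depend on its total, set pairs of genes side by side. The FPKM ratio of Krt85 to Krt86 was 0.502 to 0.692 in the Day 7 libraries, 254 to 451 (Day 10), 2.45 to 2.89 (Day 12) and 3.83 to 5.38 (Day 14). That of Krt35 to Krt34 was 0.280 to 0.464 (Day 7), 121 to 286 (Day 10), 1.44 to 1.53 (Day 12) and 1.87 to 2.41 (Day 14). In the sheath, Krt73 to Krt72 went from 0.714 to 0.858 (Day 7) to 55.9 to 74.1 (Day 10), and was 6.66 to 7.37 (Day 14). Krt28 to Krt26 went from 2.64 to 2.85 (Day 7) to 84.4 to 189.8 (Day 10), and was 13.7 to 17.8 (Day 14). The Day 10 denominators were small, with 4, 5, 6 and 5 counts for Krt86, 5, 11, 6 and 7 for Krt34, 24 to 31 for Krt72 and 13 to 27 for Krt26, so the Day 10 ratios are rough. In all 4 pairs every Day 10 library lay above every library of the other days on which both genes of the pair had counts. These pairs were chosen after their Day 10 values were seen, so the ratios are a description with no test.

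The keratin genes with a position lie in their families' clusters, type I on chromosome 11 from 99315516 to 100105626 (13 genes, 790.1 kb) and type II on chromosome 15 from 101431038 to 101802346 (11 of the 12 type II genes, Krt74 included and Krt85 not placed here, 371.3 kb), in the GENCODE annotation of mm10. Near neighbours could differ on Day 10, as did Krt28 (chromosome 11, 99364872 to 99374903) and Krt26 (99328550 to 99337966), with only Krt27 of the 32 between them. Tchh, Tchhl1, S100a3 and Prr9 lie on chromosome 3, Padi3 on 4, Gprc5d on 6, Tgm3 on 2 and Dsg4 on 18. Krt28 and Krt73 had high Day 10 shares of the Day 14 mean, Krt26 a middle one (1.58%, rank 18 of 32) and Krt34 the lowest (0.0645%). The 250 bases before the start of transcription of each of these genes are printed from the RefSeq table for GRCm38.p6, the same build as mm10. Each runs 5′ to 3′ on the gene's own strand, here the minus strand, with capitals on TATAAA and on CTTTGA, the core letters bound by Lef1 and its relatives, on either strand.
Krt28, chr11:99374904-99375153: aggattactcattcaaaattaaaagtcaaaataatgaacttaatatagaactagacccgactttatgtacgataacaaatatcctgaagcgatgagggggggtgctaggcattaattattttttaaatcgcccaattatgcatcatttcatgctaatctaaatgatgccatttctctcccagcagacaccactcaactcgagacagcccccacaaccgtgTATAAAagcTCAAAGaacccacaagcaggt
Krt73, chr15:101802361-101802610: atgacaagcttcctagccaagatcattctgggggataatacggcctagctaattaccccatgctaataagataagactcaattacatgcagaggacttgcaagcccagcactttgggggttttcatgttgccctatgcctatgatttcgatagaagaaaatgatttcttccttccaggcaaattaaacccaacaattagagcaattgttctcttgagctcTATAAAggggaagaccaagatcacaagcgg
Krt26, chr11:99337966-99338215: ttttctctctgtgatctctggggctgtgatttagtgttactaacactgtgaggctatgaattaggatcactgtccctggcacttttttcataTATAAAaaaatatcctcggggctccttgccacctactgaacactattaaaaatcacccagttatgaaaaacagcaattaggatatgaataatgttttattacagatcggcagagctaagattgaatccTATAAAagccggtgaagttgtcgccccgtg
Krt34, chr11:100041555-100041804: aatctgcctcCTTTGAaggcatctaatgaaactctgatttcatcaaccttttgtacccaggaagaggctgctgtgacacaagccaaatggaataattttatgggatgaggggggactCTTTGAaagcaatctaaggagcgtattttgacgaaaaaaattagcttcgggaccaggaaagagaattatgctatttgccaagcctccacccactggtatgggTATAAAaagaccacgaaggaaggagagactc

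All 4 promoters hold TATAAA 30 or 31 bases before the start, whichever way the gene behaved on Day 10. The table held promoters for 24 of the 33 genes, and TATAAA lay on the gene's strand within the last 50 bases before the start in 13 of these 24 (54.2%), against 2.88% of the 27025 promoters in the table. CTTTGA, on either strand of the whole window in the table, was in 7 of the 24 (29.2%), among them Krt28 and Krt34, against 16.2% of all promoters. A match of letters is a description of the sequence and not a binding site.

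Reads of near-identical genes could have been split or shared in counting. Of all 100-base stretches of their transcripts, Krt81 shared 25.0% and Krt86 24.6% with other genes, mostly each other, Krt34 shared 17.6%, Krt31 14.0% and Krt87 11%. The values of these 5 genes are therefore less certain than those of the 19 analysed genes that shared none. Krt85 had no transcript to compare. All 5 were called lower on Day 10 than on Day 7, as were Krt83 (5.17%) and Krt33a (9.99%).

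Of the regulators of the hair matrix and shaft, 12 were tested. Of the 12, 8 were called lower on Day 3 and 7 on Day 5, 1 was called higher on Day 7 and 1 on Day 10, and 7 and 8 were higher on Days 12 and 14 than on Day 0. The medians of their log2 fold changes were -2.33, -1.79, 0.09, 0.61, 2.03 and 2.43, beside the medians of -0.06 to 0.0024 over all genes tested. Without Day 0 replicate 1, the counts were 8 and 6 lower on Days 3 and 5 and 1, 2, 7 and 9 higher on Days 7, 10, 12 and 14, with medians of -1.92, -1.47, 0.19, 0.67, 2.27 and 2.74. Hoxc13, a homeobox factor that activates hair keratin genes, had mean levels of 3.29 ± 1.65 FPKM (SD, n = 4, Day 0), 0.121 ± 0.0518 (Day 3), 3.63 ± 0.417 (Day 7), 5.40 ± 0.432 (Day 10) and 43.3 ± 3.36 (Day 14). Foxn1, the factor missing in nude mice, was not called on Day 7 or Day 10 against Day 0, at 1.95 ± 0.283 FPKM (Day 7), 0.781 ± 0.196 (Day 10) and 8.85 ± 0.912 (Day 12). Shh, the signal of the hair matrix, was the regulator called higher on Days 7 and 10, at 0.162 ± 0.149 FPKM (Day 0), 0.642 ± 0.0763 (Day 7) and 2.76 ± 0.378 (Day 10).

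Keratin-associated protein genes, whose products glue the keratin filaments of the cortex, were called lower on Days 3, 5 and 10, as the cortex keratins were. Of 54 tested, 54 were called lower on Day 3, 54 on Day 5 and 54 on Day 10, 4 were lower and 5 higher on Day 7, and 48 and 37 were higher on Days 12 and 14, with 1 lower on Day 14. Their median log2 fold change was -9.10 (Day 3), -7.03 (Day 5) and -7.88 (Day 10), or -8.14, -6.90 and -7.44 with the 18, 4 and 8 genes at 0 counts on those days set to their bound. Their summed FPKM on Day 0 ran from 108 to 2401. Without Day 0 replicate 1, 54 of the 55 then tested were called lower on Days 3, 5 and 10, with medians of -7.68, -5.59 and -6.34. On Day 7, however, 43 of the 55 were higher and 2 lower. On Days 12 and 14, 54 and 47 were higher, with 1 lower on Day 14.

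Pigment cell genes had a higher summed level on Day 10 than on Day 7. Of 9 melanocyte genes, 7 were called lower on Day 3, 6 higher on Day 10 and 7 higher on Days 12 and 14 than on Day 0, and their summed FPKM was 28.5 to 51.7 (Day 0), 8.37 to 9.46 (Day 3), 30.6 to 31.6 (Day 7), 67.7 to 79.9 (Day 10) and 334 to 385 (Day 14). The dermal papilla, the cluster of mesenchymal cells that signals to the bulb, a list that shares Lef1 with the regulators, had 8 of 10 genes lower and 1 higher on Day 3, and 4 higher on Day 10, 6 on Day 12 and 4 on Day 14. Among 10 genes of the bulge and germ, where follicle stem cells sit, 8 were called lower on Day 3 and Krt24 alone on Day 10. With the adjusted p alone and no limit on the fold, 7 of the 10 were lower (26.9% of all genes tested) and 2 (Lgr5 and Lhx2) higher (23.5%) on Day 10 than on Day 0, and their median log2 fold change was -0.57. The outer root sheath list of 6 had 1 lower and 2 higher on Day 3 and the same numbers on Day 10.

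Without Day 0 replicate 1, the melanocyte counts on Days 3, 10, 12 and 14 were again 7, 6, 7 and 7, with a median on Day 10 of 2.34 in place of 1.59. The papilla had 8 lower and 1 higher on Day 3 and 4, 5 and 4 higher on Days 10, 12 and 14, and the bulge and germ and outer root sheath counts given here did not move.

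**Figure D5:**
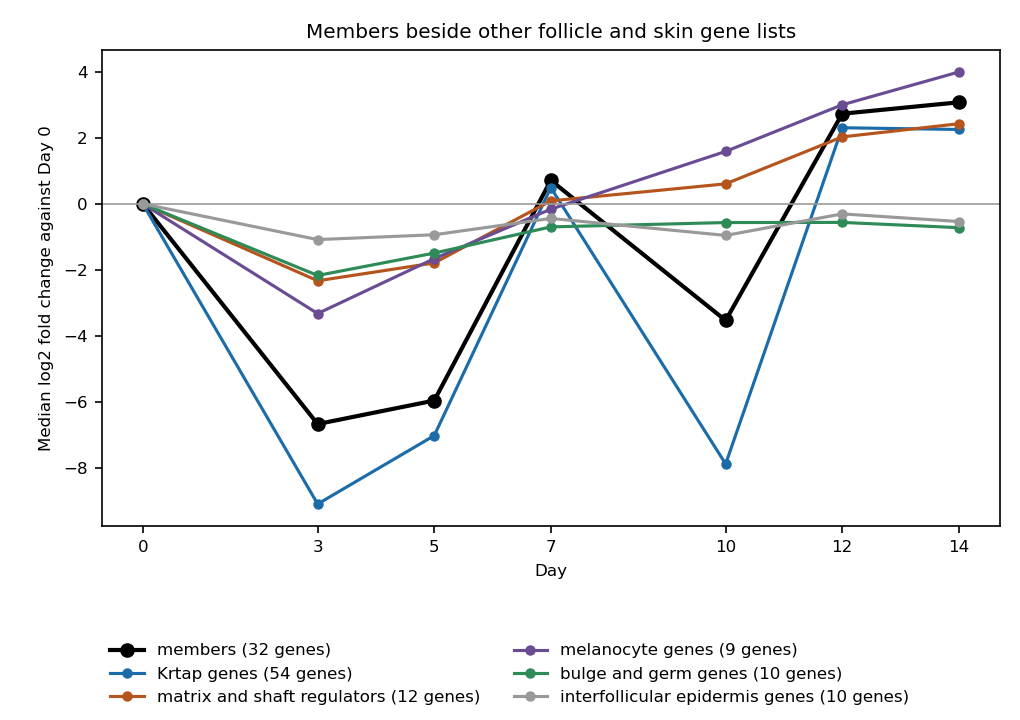
Median log2 fold change against Day 0 (edgeR) by day for the 32 genes and 5 other lists, with Day 0 at 0 by definition and the number of genes tested in the legend. On Day 10 the 32 genes and the keratin-associated genes are at -3.53 and -7.88 while the regulators, at 0.61, and the melanocyte genes, at 1.59, are above 0.

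Markers of other cells moved at the same time, and their part in the changes of the 32 genes was not tested. On Day 3, 5 of 8 leukocyte genes were called higher and 0 lower than on Day 0, and their summed FPKM was 10299 to 12467 against 1110 to 1597. On Day 10, 2 of 8 were higher, with a sum of 2092 to 2219. All 7 skeletal muscle genes were lower on Day 3 and 3 of 7 on Day 10, with sums of 10139 to 16575 (Day 0), 2226 to 2890 (Day 3) and 4971 to 6073 (Day 10). Of 10 epidermal genes, 4 were lower and 0 higher on Day 3, and the sum was 3441 to 4912 (Day 0) and 2337 to 3053 (Day 3), and 2739 to 3301 and 2811 to 3359 on Days 7 and 10. The sums of Days 7 and 10 overlapped, as did some single epidermal genes such as Krt1 (311 to 411 and 277 to 336 FPKM), but others did not. Krt77, a keratin of the suprabasal epidermis, was at 250 to 289 FPKM (Day 7), 46.8 to 62.4 (Day 10), 285 to 328 (Day 12) and 45.7 to 59.0 (Day 14), and was called lower on Day 10 than on Day 7 and higher on Day 12 than on Day 10. Krt10, also suprabasal, was at 134 to 156, 60.7 to 74.2, 156 to 177 and 40.6 to 57.0 FPKM on the same 4 days. Both were thus low on Day 10, with the hair genes, and low again on Day 14, when the hair genes were high. With no limit on the fold, 4 of the 10 epidermal genes were lower on Day 10 than on Day 7 (Krt10, Krt77, Krtdap and Ivl), against 18.0% of all genes tested, and 2 higher (Krt5 and Flg), against 14.3%. Of 8 sebaceous gland genes, 4 were lower and 1 higher on Day 3, and of 5 adipocyte genes Fabp4 alone was called, higher. The 7 fibroblast genes had log2 fold changes from -1.45 for Col1a2 to 0.997 for Pdgfra on Day 3 and from -0.999 for Dcn to 1.08 for Col3a1 on Day 10, under the limit of 1.5, though 1 of the 7 was called lower on Day 3 without Day 0 replicate 1. On Day 14, when the hair genes were high, all 7 skeletal muscle genes were called lower than on Day 0 (5 of 7 on Day 12, and 6 of 7 on Day 14 without Day 0 replicate 1), as were 2 of 8 leukocyte genes, 1 of 7 fibroblast genes, 2 of 8 sebaceous gland genes and 3 of 10 epidermal genes, with 2 epidermal genes higher. With no limit on the fold, 7 of 8 leukocyte genes and all 7 fibroblast genes were lower on Day 14, against 34.5% of all genes tested, with medians of -1.21 and -1.10.

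The 10 genes outside the keratin-associated family whose log2 CPM across the 28 libraries was most like the mean of the 32 were Calhm4, Kcnk16, Actbl2, Ly6g6g, Kcne1, Capn8, Gm7579, Crym, Gm46022 and Gja3, with Pearson's r of 0.973 to 0.997. The points share the 7 days and their libraries, so these are a description with no test. Calhm4 had a mean of 3.78 FPKM (Day 0), 0.0224 (Day 3), 5.12 (Day 7), 0.284 (Day 10) and 37.0 (Day 14). Among the 32 themselves, Tgm3 was least like their mean, with r of 0.406, followed by Krt84 with 0.802.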

How the data were processed

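RNA-seq libraries of 28 wound samples (7 days, 4 libraries each) were analysed from a table of raw gene counts and a table of FPKM. Total RNA had been isolated with TRIzol and sequenced from VAHTS Universal V6 libraries. The deposited counts are whole reads per gene made by the authors, whose processing notes name fastp, R 3.2.0 and the build mm10. The aligner, the counter, the annotation and the strand setting are not given in the sources used here. The deposited FPKM values, which the authors scaled to gene length and library total, were used as levels and were not tested. Every column mapped to a sample (0 left over).

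Counts were tested in R 4.3.3 with edgeR 4.0.16 (quasi-likelihood, two-sided, TMM normalization, filterByExpr, 1 fit of the 28 libraries with 21 residual degrees of freedom). P-values were adjusted by Benjamini-Hochberg (BH) over the 18107 genes tested, and a call needed a log2 fold change over 1.5 and an adjusted p under 0.05. The standard error (SE) is the size of the fitted log2 fold change, before the small count that edgeR adds, divided by the square root of F. For genes with few counts that fold change can differ from the printed one. Library totals ranged from 36706513 to 40655764 counts. Fold bounds for genes at 0 used a floor of 3 counts per library and cover counting error only. The 33 genes were given, and the marker lists chosen, with earlier results of these data known. Values in every library are given for the 2 genes of each class with the highest mean FPKM over the 28 libraries and for any gene called against the direction of most called genes of its class. Other genes are given by ranges and counts, except Krt28, Krt39, Krt40 and Krt84 and the ratio pairs, chosen after their values were seen. Also named are marker list genes and the 10 other genes whose log2 CPM correlated best with the mean of the 32.

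Alternatives were DESeq2 1.42.0, its size factors, no composition normalization, no filter on low counts, other call rules, a fit of the 8 libraries compared, a replicate block and each library left out. The repeat of the class and marker list comparisons without Day 0 replicate 1 was chosen after seeing the data. On simulated counts for Day 3 against Day 0, edgeR recovered 198 of 200 changed genes with 2 false calls among 17731 genes tested. The simulation gave each gene the same spread on all days. It therefore leaves out the wider spread of Day 0 and cannot show how that spread affects the calls. No pair of libraries agreed within counting noise (lowest median chi-square per gene 1.48, against 0.455 for noise alone). The labels name no batch.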

Additional observations from a re-analysis of the deposited data

Results flagged for a closer look

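In 84 groups of 4 libraries (12 genes on 7 days), 3 had a library far from the other 3 on the log2 CPM scale by Dixon's criterion, and chance gives about 4.2 of 84. Krt85 was at 6.86 in Day 0 replicate 1, against 4.39 to 4.798 in the other 3. Krt71 was at 1.39 in Day 5 replicate 2, against 2.13 to 2.19. Tgm3 was at 5.63 in Day 14 replicate 4, against 5.86 to 5.89.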

How the results depend on the processing

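Counts of called genes among the 32 kept within 1.5 times under DESeq2, its size factors, no composition normalization, no filter on low counts, an unadjusted p with the same fold limit, and fits of 8 libraries, except where given here. With no limit on the fold, 1 was higher on Day 5, 12 on Day 7 and 1 on Day 10 against Day 0, 2 were lower on Day 5 against Day 3, and 3 were lower and 7 higher on Day 14 against Day 12. Leaving out each library in turn gave 0 to 21 genes higher on Day 7 and 0 to 1 on Day 10 against Day 0, and 1 to 2 higher and 0 to 1 lower on Day 5 against Day 3 (1 lower without Day 3 replicate 2 or 4 or Day 5 replicate 2 or 3). Without 1 library, log2 fold changes against Day 0 changed sign on Day 7 for Krt35 (-0.34 to 0.83), Krt85 (-0.20 to 0.97) and S100a3 (-0.069 to 1.32), and on Day 10 for Krt85 (-0.039 to 1.13). None of these 4 was called. Further calls lost without 1 library were Padi3 on Day 10 (-0.86 without Day 0 replicate 1), Prr9 on Day 12 (1.41 without Day 0 replicate 4), Krt84 on Day 14 (1.36 to 1.46 without Day 0 replicate 2, 3 or 4), and Tgm3 on Day 12 against Day 10 (1.49 without Day 10 replicate 3, 1.46 without Day 12 replicate 4). The cause was not tested.

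Replicate numbers do not pair the libraries: correlations of deviations between same-numbered libraries ran from -0.08 to 0.18, and no comparison had all pairs above 0.1. With the replicate block, 3 genes in place of 1 were called higher on Day 7 against Day 0 and 30 in place of 29 on Day 12, and Krt35 on Day 7 moved from -0.09 to 0.050.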
